A study of Mus musculus with 32 samples.

Results

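Serum response factor, *Srf*, and 9 genes regarded as targets of SRF or of the Hippo pathway effector YAP were followed through GATA6 induction in mouse embryonic stem (mES) cells. The 10 genes were taken by their symbols from the deposited expression table of 54233 genes, and all 10 had a row in it. They were *Srf*, *Ankrd1*, *Amotl1*, *Amotl2*, *Lats2*, *Tagln*, *Acta2*, *Actg2*, *Cnn1* and *Myl9*. The series profiled poly(A) RNA at 8 time points after doxycycline (Dox), 0, 2, 4, 8, 16, 24, 48 and 96 h, with 4 replicates at each, 32 samples in all. All samples came from 1 line, KH2 mES cells of strain C57BL/6 that carry a single copy of the transgene TRE:GATA6-DSREd2, in which a tetracycline-responsive element drives GATA6 together with a red fluorescent protein. Cells at 0 h were kept in 2i medium, which holds LIF and the inhibitors PD0325901 (of MEK) and CHIR9902 (the spelling of the labels, of GSK3). Cells of all later time points were moved to a medium with fetal bovine serum and LIF, with 1 µg/ml Dox for up to 12 h and without Dox afterwards. Every comparison with 0 h therefore holds the start of Dox, the loss of both inhibitors and the arrival of serum, which cannot be told apart. Comparisons among 2 h, 48 h and 96 h were made within serum medium, although Dox was present only at 2 h of these 3.

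SRF is a transcription factor that binds the CArG box of the serum response element. With its myocardin-related cofactors MRTF-A and MRTF-B (*Mkl1*, *Mkl2*), which are held back by monomeric actin, it drives genes of the contractile and actin cytoskeleton, and with ETS-family cofactors it drives immediate early genes after serum or growth factors. YAP and TAZ are coactivators that reach DNA through TEAD factors and are kept out of the nucleus when the Hippo kinases LATS1 and LATS2 phosphorylate them. *Ankrd1* is a classical YAP target, whereas *Lats2*, *Amotl1* and *Amotl2* are targets whose products in turn restrain YAP. *Acta2*, *Actg2*, *Tagln*, *Cnn1* and *Myl9* are contractile genes that are best known from smooth muscle.

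The samples held 3190108 to 12301732 reads on genes, with a median of 8870662.5. A normalized count below is the number of reads on a gene divided by the size factor of its sample. Replicates 1 and 2 of every time point resembled each other more than they resembled replicates 3 and 4, with a median chi-square per degree of freedom of 1.53 within these sets and 10.3 between them, so values of both sets are given where they part. *Gata6* itself rose from a mean of 0.371 ± 0.432 normalized counts at 0 h (SD, n = 4) to 14.9 ± 2.59 by 2 h and 171 ± 17.2 by 4 h, and stood at 2067 ± 154 at the end of the course. The summed level of 5 ES cell markers lay between 25889 and 27083 normalized counts at 0 h and between 2305 and 3003 at 96 h, whereas that of 6 primitive endoderm markers went from between 44.2 and 69.3 to between 30410 and 35027. The study describes its replicates as independent experiments, but neither it nor the labels say whether these 4 were separate cultures or what the sets are, so the p-values measure the spread between these samples, which may in part be technical. Changes were tested with limma on log2(normalized count + 1) over 15227 genes that reached a normalized count of 10 in at least 4 samples. All p-values named adjusted are Benjamini-Hochberg values over these genes. Of the 10 genes 7 passed this filter. *Acta2*, *Actg2* and *Cnn1* did not, and *Tagln* passed only through its samples at 96 h and *Ankrd1* only through those of 4, 8 and 96 h. In these bulk samples, a change in the share of cells that express a gene and a change in RNA per cell cannot be told apart.

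Motifs of SRF and of TEAD factors were looked for in the RefSeq promoter windows (GRCm38.p6, 250 bases before to 50 bases after the start) that were found for 8 of the 10 genes, all but *Tagln* and *Actg2*. CArG boxes lay in the windows of 2 genes, *Srf* with 2 boxes and *Myl9* with 1, whereas 1.81% of all 27025 genes with a window held one. The TEAD motif GGAATG, or CATTCC on the other strand, lay in the windows of 4 genes, *Ankrd1* with 2 matches and *Amotl2*, *Acta2* and *Lats2* with 1 each, against 16.6% of all genes. Neither motif was found in the windows of *Amotl1* and *Cnn1*, and no CArG box overlapped a TEAD motif. A match is only a match of letters and no evidence of binding. The sequences of all CArG boxes and of the TEAD motifs before a start are shown because they are the letters that SRF and TEAD factors are known to recognise. They run 5′ to 3′ on the strand of the gene, with each motif in capitals. The *Srf* stretch (chr17:46556195-46556264, minus strand) holds boxes at 82 to 73 and at 62 to 53 bases before the start, and the *Myl9* stretch (chr2:156775283-156775332, plus strand) holds 1 at 161 to 152 bases before it. The *Ankrd1* sites (chr19:36120039-36120064 and chr19:36119952-36119977, minus strand), the *Amotl2* site (chr9:102717729-102717754, plus strand) and the *Acta2* site (chr19:34255504-34255529, minus strand) lay before the RefSeq start but inside an exon that GENCODE annotates.
Srf, 2 CArG boxes: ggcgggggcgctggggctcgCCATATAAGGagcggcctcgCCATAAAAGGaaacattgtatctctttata
Myl9, CArG box: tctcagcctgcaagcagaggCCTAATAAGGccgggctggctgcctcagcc
Ankrd1, distal TEAD motif: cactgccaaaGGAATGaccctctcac
Ankrd1, proximal TEAD motif: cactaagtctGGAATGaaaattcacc
Amotl2, TEAD motif: gaaactctcaCATTCCtggcatagca
Acta2, TEAD motif: gcagaacagaGGAATGcagtggaaga

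*Srf* (ENSMUSG00000015605, chr17:46548329-46556175, minus strand), whose window held both CArG boxes, showed a sharp early peak at 2 h and a later rise at 96 h. Its 4 replicates had normalized counts of 262, 259, 265 and 280 before induction and of 872, 865, 669 and 634 at 2 h. By 4 h they were back at 325, 317, 277 and 296. All 2 h samples thus lay above all samples at 0 h and 4 h. The log2 fold change from 0 to 2 h was 1.49 ± 0.12 (SE, adjusted p = 3.88e-11), and from 2 to 4 h *Srf* fell by 1.31 on the log2 scale (adjusted p = 3.28e-09). From 4 h to 24 h the means stayed between 272 and 349, of which only the level at 16 h was above that at 0 h by the test (log2 fold change 0.39 ± 0.12, adjusted p = 0.00949). That call was lost when the 2 samples of each set were averaged (adjusted p = 0.149). A second increase began at 48 h, with 338, 305, 436 and 424 (0.48 ± 0.12 against 0 h, adjusted p = 0.00093), and reached 677, 714, 856 and 857 at 96 h (1.53 ± 0.12, adjusted p = 1.64e-12). The 96 h samples lay above all 48 h samples, with a log2 fold change of 1.05 (adjusted p = 3.16e-08). Both peaks had nearly the same mean, 760 ± 126 at 2 h and 776 ± 94.1 at 96 h, and their difference did not pass the test (0.04 ± 0.12, adjusted p = 0.796; -0.12 with total reads as the scale). The sets of replicates gave opposite signs here: 96 h was lower than 2 h by the fit of replicates 1 and 2 alone (log2 fold change -0.32, adjusted p = 0.00325) and higher by that of replicates 3 and 4 alone (0.39, adjusted p = 6.28e-05). Both the early and the late increase against 0 h were present in each set. For 2 h the log2 fold change was 1.73 in replicates 1 and 2 and 1.26 in replicates 3 and 4, and for 96 h it was 1.41 and 1.65.

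**Figure D1:**
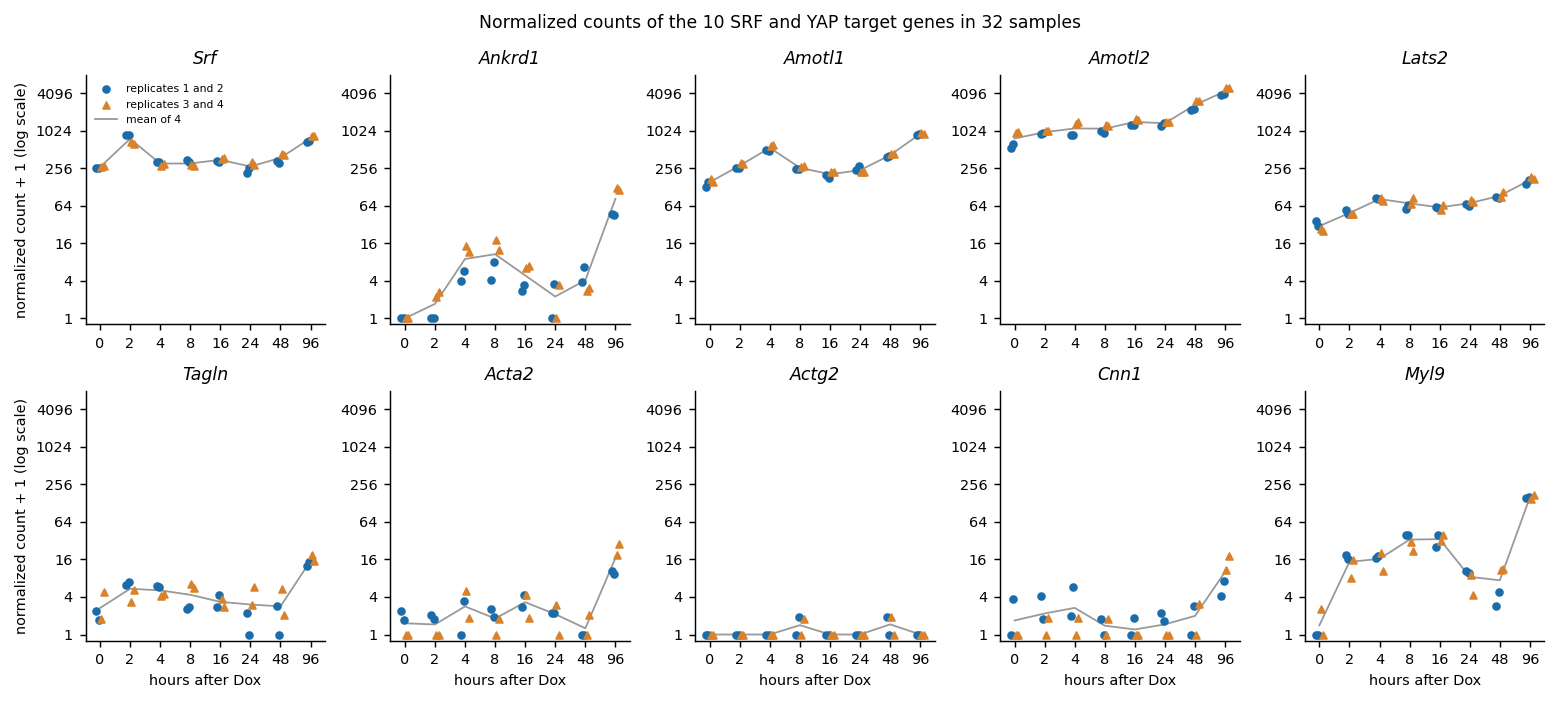
Normalized count plus 1 of each of the 10 genes on a log axis against hours after Dox, with circles for replicates 1 and 2, triangles for replicates 3 and 4 and a line through the mean of 4. *Srf* peaked at 2 h with 634 to 872, *Amotl1* at 4 h with 492 to 604 and *Myl9* at 8 h and 16 h with 21.3 to 39.3 before all 3 reached a high level at 96 h, while *Actg2* stayed under 1 normalized count in every sample.

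*Ankrd1* (ENSMUSG00000024803, chr19:36111961-36120099, minus strand), which encodes a muscle ankyrin repeat protein, was undetected at the start and had both an early and a much larger late increase. No read fell on it in any of the 4 replicates at 0 h, and 3 reads in all did at 2 h. After 4 h the replicates had normalized counts of 2.97, 4.85, 13.6 and 10.4, and after 8 h they had 3.14, 7.14, 17.1 and 11.4. All 4 samples at each of these times lay above those of 0 h and 2 h. Against a floor of 3 reads in each 0 h library, *Ankrd1* was at least 2.23-fold higher at the former time and at least 2.72-fold higher at the latter (limma adjusted p = 2.99e-05 and 8.86e-06). The counts were down to 0, 2.5, 0 and 2.45 by 24 h and to 2.83, 5.65, 1.76 and 2.06 by 48 h. At 96 h they reached 45.6, 44.2, 124 and 113, at least 23-fold above the floor at 0 h (adjusted p = 5.74e-12) and 30-fold above 48 h by the summed reads (95% counting interval 16.1 to 63.2, adjusted p = 8.04e-08). Replicates 3 and 4 stood well above replicates 1 and 2 at 4, 8, 16 and 96 h, but not at 48 h. Counting intervals and floors in this text cover counting error only.

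Both angiomotin-like genes, whose products hold YAP at cell junctions and at actin, rose late, and *Amotl1* also had an early peak. *Amotl1* (ENSMUSG00000013076, chr9:14541966-14645056, minus strand) had normalized counts of 126, 154, 172 and 155 at 0 h, which rose to 257, 259, 314 and 298 by 2 h and to 502, 492, 580 and 604 by 4 h. The groups did not overlap at any of these 3 times, and the log2 fold change against 0 h was 0.89 ± 0.09 for 2 h and 1.84 ± 0.09 for 4 h (adjusted p = 7.36e-09 and 7.19e-16). By 8 h the gene had fallen by 1.06 on the log2 scale (adjusted p = 1.9e-09), and at 16 h its mean was 205 ± 19.1. It rose again to 395, 401, 439 and 427 by 48 h and to 863, 910, 959 and 924 by 96 h. The last values were 2.59 ± 0.09 above 0 h on the log2 scale (adjusted p = 1.13e-20), with 2.66 and 2.52 in the sets. Its early peak at 4 h thus came after that of *Srf*, and all 96 h samples exceeded it.

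*Amotl2* (ENSMUSG00000032531, chr9:102716672-102733418, plus strand), the member with the highest counts, rose without an early peak. Its 0 h samples were split by set, at 541 and 628 in replicates 1 and 2 and at 935 and 975 in replicates 3 and 4, and at 2 h all 4 lay between 913 and 1013. The difference at 2 h was 0.38 ± 0.17 (adjusted p = 0.0752), and it was lost within replicates 3 and 4 (0.08, adjusted p = 0.151) and with total reads as the scale (0.27, adjusted p = 0.193). It was also lost without 0 h replicate 1 or 2 or without 2 h replicate 2, 3 or 4 (adjusted p between 0.103 and 0.322). At 4 h and 8 h the log2 fold changes of 0.54 and 0.56 passed the test (adjusted p = 0.00974 and 0.00758) but not with the sets averaged (adjusted p = 0.168 and 0.151). The later increases were larger than this split. By 48 h the replicates had reached 2187, 2280, 3088 and 3114 and by 96 h 3816, 3949, 4913 and 4894, above every earlier sample. The log2 fold changes against 0 h were 1.82 ± 0.17 and 2.55 ± 0.17 (adjusted p = 5.97e-11 and 1.69e-14), and that of 96 h against 48 h was 0.73 ± 0.17 (adjusted p = 0.000613).

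*Lats2* (ENSMUSG00000021959, chr14:57689662-57758388, minus strand), which encodes the kinase that phosphorylates YAP, rose at 2 h and was higher than at 0 h at all 7 later time points. Its normalized counts were 35.9, 29.9, 26.6 and 24.6 before induction, 53, 46.8, 45.7 and 46.8 after 2 h, and 85, 80, 84.2 and 75.4 after 4 h. These 3 groups did not overlap, with log2 fold changes against 0 h of 0.71 ± 0.13 and 1.45 ± 0.13 (adjusted p = 6.01e-05 and 2.36e-10). From 8 h to 24 h the means lay between 59.3 and 69.5. The counts were 87.6, 84.8, 88.8 and 105 at 48 h (1.62 ± 0.13 against 0 h, adjusted p = 2.91e-12) and 140, 166, 186 and 169 at 96 h (2.47 ± 0.13, adjusted p = 9.04e-17), the latter above all others. Reads of *Lats2* may be missing from its counts: 56.5% of the 50-base windows of its longest coding transcript also occur in *Gm49361*, an annotated protein-coding gene that overlaps it on the same strand and had 0 reads in all 32 samples, and how reads on 2 genes were treated is not given in the sources used here.

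*Myl9* (ENSMUSG00000067818, chr2:156775420-156781658, plus strand) encodes a regulatory light chain of non-sarcomeric myosin II and was the contractile gene with the clearest early increase. At 0 h, 3 replicates had no read and replicate 3 had 2 reads. At 2 h the normalized counts were 17.7, 15.1, 7.03 and 14.8, which is 27.8-fold above 0 h by the summed reads (95% counting interval 7.36 to 234, limma adjusted p = 1.86e-08). They reached 39.3, 39.3, 29.6 and 21.3 by 8 h and 24.4, 38.3, 31.3 and 38 by 16 h, all above the 2 h samples. The level then fell by 2.07 on the log2 scale to 9.61, 8.76, 8.12 and 3.26 at 24 h (adjusted p = 0.000181), with 1.88, 3.77, 9.68 and 10.3 at 48 h. At 48 h the sets parted, so that 48 h was below 2 h in replicates 1 and 2 (log2 fold change -2.22) but not in replicates 3 and 4 (-0.03, adjusted p = 0.952). At 96 h all 4 samples were high, at 153, 160, 149 and 174, with a log2 fold change of 4.64 ± 0.38 against 48 h (adjusted p = 4.03e-11).

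The remaining contractile genes were hardly expressed before 96 h. *Tagln* (ENSMUSG00000032085, chr9:45929619-45936058, minus strand), the gene of the actin-binding protein SM22, had between 0 and 6.04 normalized counts in the 28 samples up to 48 h. At 96 h it had 11.7, 13.7, 17.6 and 14.2, above all of these. The summed reads at 96 h were 11.2-fold those at 0 h (95% counting interval 4.52 to 36) and 6.54-fold those at 48 h (3.09 to 15.9, limma adjusted p = 2.59e-05). Since only its 96 h samples brought *Tagln* into the test, that p-value is no separate support for the late increase. Its differences at 2 h and 4 h (log2 fold change 1.11 ± 0.47 and 1.06 ± 0.47, adjusted p = 0.0633 and 0.0711) rested on 1 to 8 reads per sample and failed the test within replicates 3 and 4 (adjusted p = 0.535 and 0.458). Without any 1 of 0 h replicates 2 and 3 and 2 h replicates 1 and 2 the former was also lost (adjusted p between 0.128 and 0.161), as was the latter without any 1 of 0 h replicates 1, 2 and 3 and 4 h replicates 1 and 2 (between 0.11 and 0.176). *Tagln* overlaps *Pcsk7* on the opposite strand, a gene with a mean of 234 normalized counts, and the strand setting of the counting is not given in the sources used here, although the library kit kept strand.

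*Acta2* (ENSMUSG00000035783, chr19:34241090-34255590, minus strand) encodes smooth muscle α-actin and had at most 5 reads in any sample up to 48 h. At 96 h its normalized counts were 9.55, 8.41, 17.6 and 27.4, above all earlier samples. The summed reads at 96 h were 31.8-fold those at 0 h, where there were 2 reads (95% counting interval 8.42 to 268). In a limma fit without the filter the increase from 48 h to 96 h had an adjusted p of 4.48e-07, and the exact two-sided permutation test gave p = 0.0286, the smallest that 4 against 4 samples allow. Only 0.352% of the 50-base windows of its transcript occur in other genes, *Actg1* and actin pseudogenes. *Cnn1* (ENSMUSG00000001349, chr9:22099216-22109630, plus strand), the gene of calponin, was likewise highest at 96 h, with 3.18, 6.31, 10 and 17 normalized counts at 96 h. Its 96 h samples overlapped with those of 4 h, of which 1, with 2 reads, had 4.85. The ratio of summed reads to 48 h was 11.5 (95% counting interval 3.63 to 58.5, limma without the filter, adjusted p = 0.00116, exact permutation p = 0.0286). *Actg2* (ENSMUSG00000059430, chr6:83512905-83536265, minus strand), the gene of smooth muscle γ-actin, had 1 read in each of 4 samples, 2 of them at 8 h and 2 at 48 h, and none in the other 28. At this depth no difference was detectable for it.

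**Figure D2:**
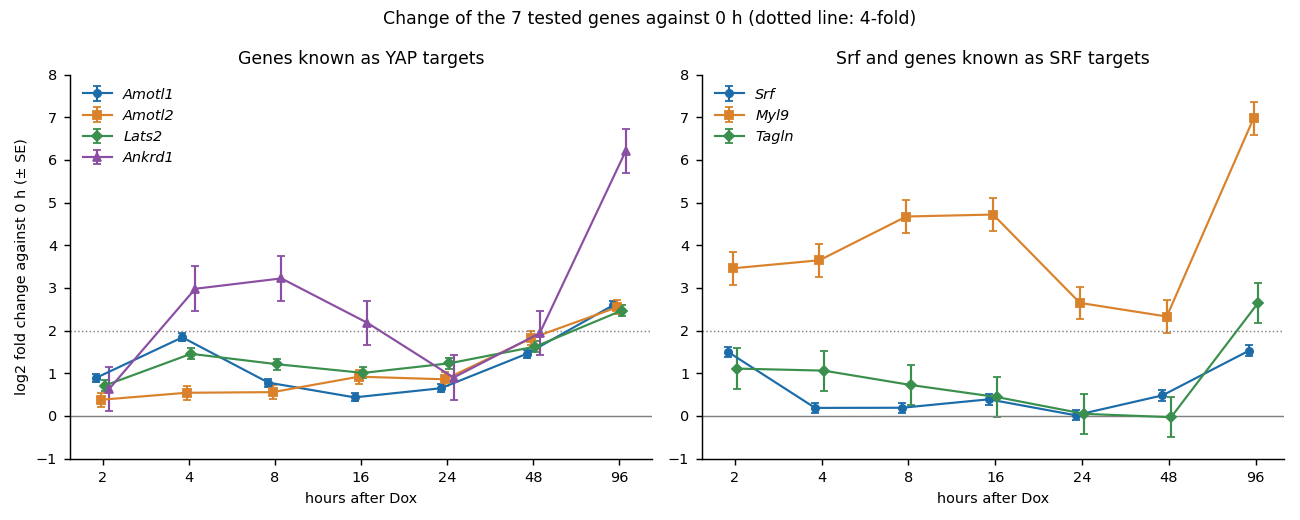
Log2 fold change against 0 h, with its standard error from limma, of the 7 tested genes at the 7 later time points, with the YAP targets on the left, *Srf* and SRF targets on the right, and a dotted line at a 4-fold change. *Amotl1*, *Amotl2* and *Lats2* converged between 2.47 and 2.59 at 96 h, while *Srf* had a log2 fold change of 1.49 at 2 h and 1.53 at 96 h with smaller values between; the points of *Ankrd1*, *Myl9* and *Tagln* depend on the added count of 1, since these genes had 5 reads or fewer at 0 h.

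Counted over the 7 tested genes, higher levels than at 0 h prevailed at every time point. At 2 h 6 were higher at FDR < 0.1, beside 22.2% of all tested genes, and 1 of these was past 4-fold, *Myl9*, beside 2%. At 4 h 6 were higher (background 24.7%) and 2 past 4-fold (2.69%), and at 8 h 5 were higher (26.3%) and 2 past 4-fold (3.4%). At both times the genes past 4-fold were *Ankrd1* and *Myl9*. The count was 6 at 16 h (28%), again with *Ankrd1* and *Myl9* past 4-fold (4.03%), and 4 at 24 h (31.2%), with *Myl9* alone past 4-fold (4.85%), so that 24 h had the lowest count. It returned to 6 at 48 h, where the background had itself grown to 36.1%, and 1 gene, *Myl9*, was past 4-fold (8.48%). At 96 h all 7 tested genes were higher (38%), and 6, all but *Srf*, were past 4-fold (9.28%). *Tagln* is in both numbers only because its 96 h samples brought it into the test, so that it had to differ there, and without it they were 6 of 6 and 5 of 6. None of the 7 was called lower than at 0 h by limma, whereas many of all tested genes were. For 2, 4 and 8 h their share was 22.6%, 23.8% and 22.8%, for 16 h and 24 h it was 25.3% and 30.7%, and for 48 h and 96 h it reached 37.3% and 38.5%. With limma at an unadjusted p under 0.05 and with limma-voom at FDR < 0.1 the number of the 7 called lower was also 0 at each time. *Ankrd1*, *Myl9* and *Tagln* had 5 reads or fewer in all at 0 h, so there was no room for them to be called lower. They passed the filter only through later samples, so they had to be higher than at 0 h at some time. All calls past 4-fold before 96 h were of *Ankrd1* and *Myl9*. The comparison with all tested genes, for higher and for lower levels, thus rests on *Srf*, *Amotl1*, *Amotl2* and *Lats2*. Of these, *Srf* was called higher at 2, 16, 48 and 96 h and the other genes at every time. With the sets of replicates averaged the count of higher genes was 4 at 2, 4 and 8 h and 5 at 16 h, without *Amotl2* at the first 3 of these times, *Tagln* at 2 h and 4 h and *Srf* at 16 h. It was the same at 24, 48 and 96 h. No share of all tested genes is given for this averaged fit, so these counts have no background beside them.

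Within serum medium, the genes moved in both directions from 2 h to 48 h, in numbers not far from those over all tested genes, and all rose from 48 h to 96 h. Against 2 h, 4 of the tested genes were higher at 48 h, the YAP targets *Amotl1*, *Amotl2*, *Ankrd1* and *Lats2*, beside 36.9% of all tested genes. The log2 fold changes were 0.56, 1.44 and 0.91 for *Amotl1*, *Amotl2* and *Lats2*. For *Ankrd1* the call rested on 10 reads at 48 h and was lost within replicates 3 and 4 (adjusted p = 0.643). The other 3, *Srf*, *Myl9* and *Tagln*, were lower at 48 h than at 2 h, beside 38.3%, *Srf* by a log2 fold change of -1.01 (adjusted p = 1.35e-08). Within replicates 3 and 4 only *Srf* of these 3 was called lower, as the differences of *Myl9* and *Tagln* shrank to -0.03 and -0.32 (adjusted p = 0.952 and 0.639), and for *Tagln* the call was also lost without 48 h replicate 2 (adjusted p = 0.175). From 48 h to 96 h, both without Dox, all 7 tested genes rose, beside 27.3% of all tested genes, and 3 of them, *Ankrd1*, *Myl9* and *Tagln*, passed 4-fold, beside 1.3%. *Tagln* entered the test only because of its 96 h samples. *Ankrd1* and *Myl9* passed the filter through samples in which they were high, those of 96 h among them. The 1.3% of all tested genes is thus no fair measure for these 3. The other 4, *Srf*, *Amotl1*, *Amotl2* and *Lats2*, rose by 0.73 to 1.14 on the log2 scale, all under 4-fold. Between 2 h and 4 h, 3 genes, *Ankrd1*, *Amotl1* and *Lats2*, rose (13.6% of all genes), and *Srf* fell (10.9%).

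Levels were compared between the genes per kb of exon, on a linear scale of normalized counts. *Amotl2* had the highest mean at every time point except 2 h, with 122 ± 34.5 per kb at 0 h and 699 ± 94.1 at 96 h (SD, n = 4). *Srf* came second at 0 h, with 92.1 ± 3.14, and at 48 h. At 2 h *Srf* was the highest, with 263 ± 43.5 beside 154 ± 7.84 for *Amotl2*. At 96 h *Srf* was at 268 ± 32.5 per kb, *Myl9* had risen to 137 ± 9.38 from 0.347 ± 0.694 at 0 h, and *Amotl1* was at 90.8 ± 3.96. *Ankrd1*, at 28.4 ± 14.9, and *Lats2*, at 23.7 ± 2.71, overlapped. The smooth muscle genes remained low even then, with 7.18 ± 1.23 for *Tagln*, 7.17 ± 4 for *Acta2* and 3.34 ± 2.18 for *Cnn1*, so that *Acta2* was at a level far below that of *Myl9*.

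**Figure D3:**
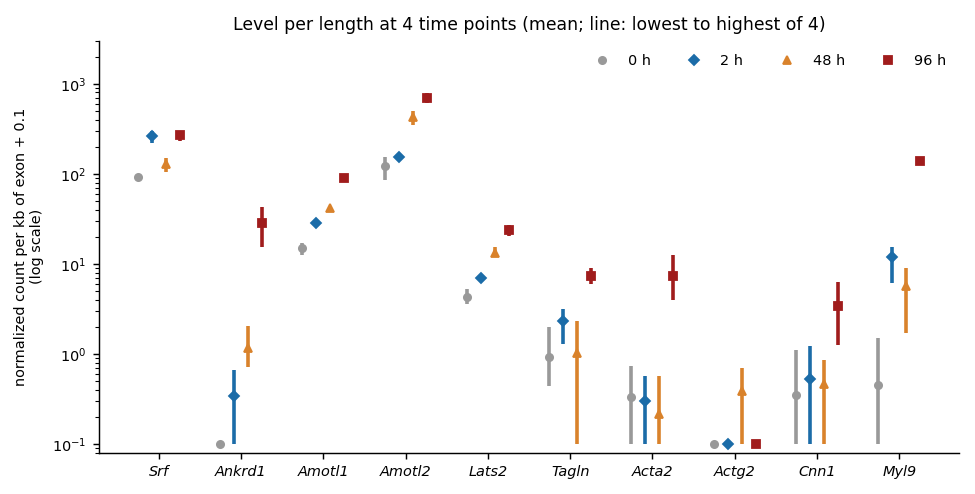
Normalized count per kb of exon plus 0.1 on a log axis for the 10 genes at 0, 2, 48 and 96 h, with a symbol for the mean of 4 replicates and a line from the lowest to the highest. At 96 h the genes ranged from 699 for *Amotl2* to 3.34 for *Cnn1*, while *Actg2* had reads only at 48 h of these times, 1 in each of 2 samples.

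For 9 of the 10 genes, all but *Actg2*, 96 h had the highest mean of the 8 time points. For *Srf* its samples overlapped with those of the next time point in order, 2 h, and for *Cnn1* with those of 4 h, whereas for the other 7 there was no overlap. No share over all genes is given for these 2 counts, so whether they are unusual cannot be said. Of all tested genes, 38% were called higher at 96 h than at 0 h. *Tagln*, *Acta2* and *Cnn1* were near the floor at all earlier times. Time courses were also compared with those of all tested genes with a symbol by the root mean square difference of their centred mean log2(normalized count + 1) over the 8 time points. Among 13339 genes, those nearest to *Srf* were *Hmox1*, *Snx16* and *Tnfrsf1a*, at 0.26, 0.27 and 0.28. Those nearest to *Ankrd1* were *Igsf11* at 0.34, *Csf1r* at 0.50 and *Crim1*, itself a known YAP target, at 0.70. For *Amotl2* they were *Rdh10*, *Akt1* and *Mapkapk2* at 0.11 to 0.13. Between the members the smallest distances were those of *Lats2* with *Amotl1*, 0.34, and with *Amotl2*, 0.36, whereas *Srf* and *Ankrd1* were 1.66 apart.

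Other genes of the SRF pathway were described from lists of known members. Among 18 further actin cytoskeleton targets of SRF and MRTF, 15 were higher and 1, *Lima1*, was lower at 2 h than at 0 h, with a median log2 fold change of 1.09 against -0.03 over all tested genes. The 3 past 4-fold were *Fhl2*, a LIM-domain cofactor, *Tgfb1i1*, the focal adhesion protein HIC-5, and *Zyx*, zyxin, with log2 fold changes of 4.08 ± 0.39, 2.80 ± 0.47 and 2.22 ± 0.20. Their adjusted p-values were 1.07e-09, 1.88e-05 and 3.79e-10. The cytoskeletal actins *Actb* and *Actg1* rose by 1.10 and 1.00 on the log2 scale at the same time. Over all tested genes 22.2% were higher and 22.6% lower at that time, and 2% were higher past 4-fold. By 24 h the numbers had shrunk to 8 higher and 5 lower, beside 31.2% and 30.7% of all tested genes. Again 14 were higher at 48 h (background 36.1%), when *Vcl*, *Flna* and *Cald1* were lower (37.3%). At that time 5 passed 4-fold (background 8.48%), *Tgfb1i1*, *Zyx*, *Fhl2*, *Tpm4* and *Myh9*, at 2.13 to 4.02. Finally all 18 were higher at 96 h than at 0 h (background 38%), 10 of them past 4-fold (9.28%), with a median of 2.36 beside -0.03. Of the 18, 16 were higher at 96 h than at 48 h (background 27.3%). The mean normalized count of *Fhl2* was 4.71 before induction, 89.8 after 2 h, 29.8 after 48 h and 564 after 96 h, so that it too was high at 2 h and at 96 h.

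Immediate early targets of SRF with ETS cofactors had the 2 h peak as well. Of 9 such genes 8 were higher at 2 h than at 0 h (background 22.2%), with a median log2 fold change of 1.82, and *Ier2* alone, with -0.01, did not pass the test. Past 4-fold were *Egr1*, *Egr2*, *Egr3* and *Fosb*, which encode transcription factors induced by growth factors. *Egr1* went from 90.6 to 2191 normalized counts (log2 fold change 4.58 ± 0.40, adjusted p = 1.5e-10) and was down to 52.2 by 48 h and 18.6 by 96 h. *Egr3* had 1 read in all at 0 h and 1859 at 2 h. All 9 were lower at 48 h than at 2 h (background 38.3%). By 96 h 4 were higher and 3 lower than at 0 h, shares near the 38% and 38.5% of all tested genes, with a median of 0.21 (0.01 with total reads as the scale and -0.38 in replicates 1 and 2 alone). Of 5 tested cofactors of SRF, *Elk4* and *Elk1* rose by 0.66 and 0.34 at 2 h (background 22.2%). *Elk3* fell by 0.57 (background 22.6%). *Mkl1*, which encodes MRTF-A, changed only at 96 h among the 7 comparisons with 0 h (1.36 ± 0.19, adjusted p = 2.54e-07). *Mkl2* rose by 0.47 over the same interval (adjusted p = 0.0102). With total reads as the scale the median change of all tested genes at 96 h moved by -0.26, so the size of both changes depends on the scale. *Myocd*, myocardin, was too low to be tested, with 1 read at 0 h and, of the later times, 3 reads after 48 h and 30 after 96 h.

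**Figure D4:**
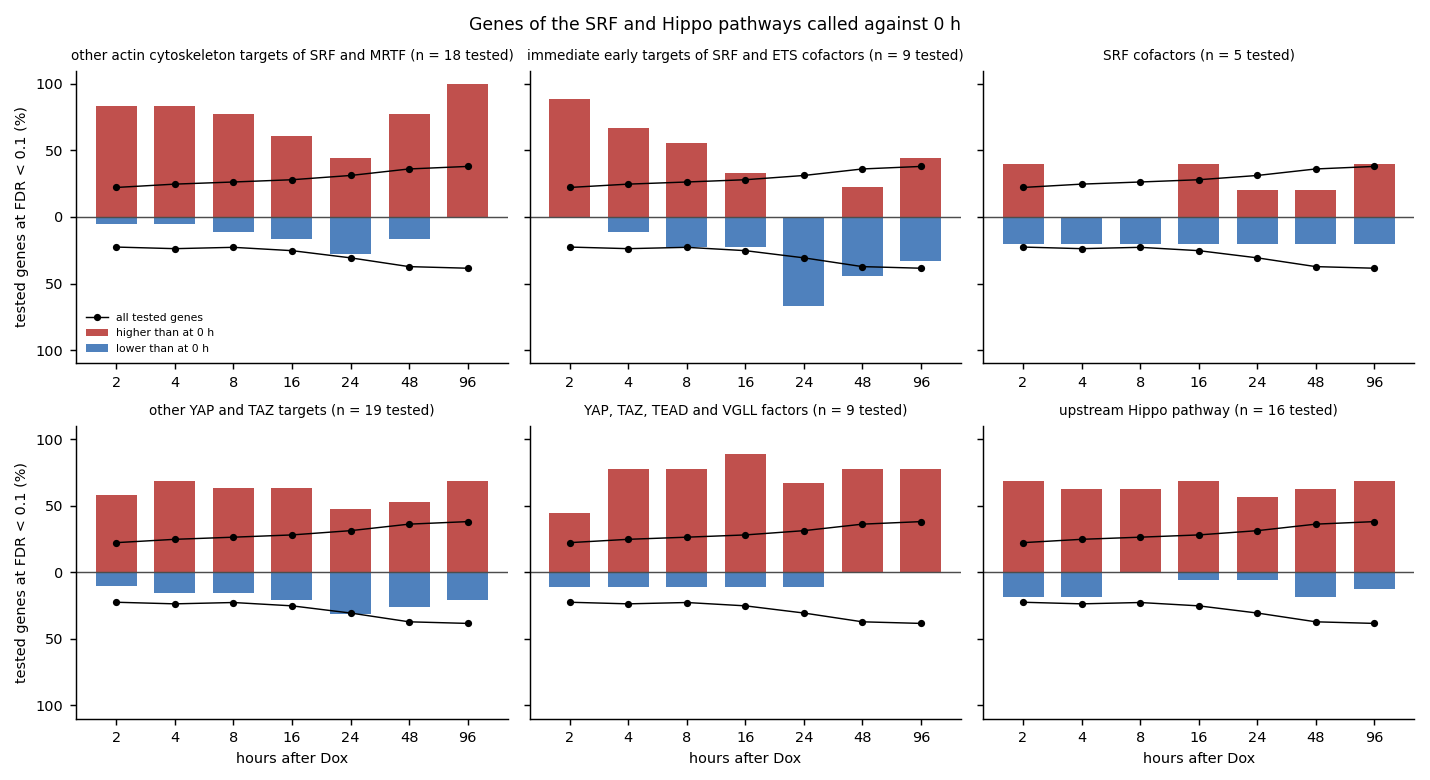
Share of the tested genes of 6 lists that were higher (red, upwards) or lower (blue, downwards) than at 0 h at FDR < 0.1 in limma at each time point, with black points for all 15227 tested genes. The actin cytoskeleton targets of SRF went from 15 of 18 higher at 2 h through 8 at 24 h to 18 at 96 h, while of the immediate early targets 8 of 9 were higher at 2 h and 4 at 96 h.

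YAP and TAZ targets outside the 10 genes moved in both directions. Of 19 tested, 11 were higher and 2 lower at 2 h than at 0 h (background 22.2% and 22.6%), with a median log2 fold change of 0.91. For 48 h the numbers were 10 and 5 (36.1% and 37.3%) with a median of 0.34. For 96 h they were 13 and 4 (38% and 38.5%) with a median of 0.89. Past 4-fold at 2 h were *F3*, tissue factor, *Ctgf* and *Cyr61*, matricellular proteins and the best known YAP targets, with log2 fold changes of 3.35 ± 0.16, 2.96 ± 0.23 and 2.57 ± 0.20 (adjusted p = 1.48e-16, 1.11e-11 and 2.05e-11). These genes parted at 48 h. The mean normalized count of *Ctgf* went from 94.5 to 716 by 2 h, was back at 115 by 48 h and rose to 2820.5 by 96 h, and its difference between 0 h and 48 h did not pass the test (0.33 ± 0.23, adjusted p = 0.207). *Cyr61* was at 670 at 48 h, above 0 h by 2.87 ± 0.20 (adjusted p = 1.59e-13), and *F3* at 484, above 0 h by 4.36 ± 0.16. Also past 4-fold higher at 48 h were *Foxf2*, *Ccdc80*, *Ptpn14* and *Crim1*. *Nt5e*, the ectonucleotidase CD73, was past 4-fold lower, with 174 normalized counts at 0 h and 21.1 at 48 h (-3.30 ± 0.35, adjusted p = 1.17e-09). On *Foxf2* there were 2 reads at 0 h and 485 after 48 h. From 48 h to 96 h, *Ctgf* rose by 4.56 ± 0.23 (adjusted p = 1.91e-15) and *Crim1* by 3.82 ± 0.24 (adjusted p = 1.24e-13).

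*Yap1* itself did not pass 4-fold at any time, with mean normalized counts between 1356, at 2 h, and 1922, at 96 h (0.46 ± 0.05 against 0 h for the latter, adjusted p = 1.47e-09). The size of this change depends on the scale, since total reads moved the median change of all tested genes at 96 h by -0.26. Of the 9 tested YAP, TAZ, TEAD and VGLL factors 4 were higher and *Tead2* was lower at 2 h (background 22.2% and 22.6%), and 7 were higher both after 48 h (36.1%) and after 96 h (38%). *Vgll3*, a TEAD cofactor, was past 4-fold at 2 h, at 212 against 19.9 normalized counts (3.32 ± 0.23, adjusted p = 6.63e-13), and fell to 65.7 at 48 h. *Vgll1*, another, had 1 read at 0 h and 82 at 48 h. Of 16 upstream Hippo genes 11 were higher and 3 lower at 2 h than at 0 h (background 22.2% and 22.6%), and for 48 h these numbers were 10 and 3 (36.1% and 37.3%). Those past 4-fold at 48 h were *Amot*, the founder of the angiomotin family, *Ptpn14* (also in the list of targets) and *Wwc2*. *Amot* went from a mean of 9.45 normalized counts to 23.5 by 2 h and 3770 by 48 h (log2 fold change 8.50 ± 0.12, adjusted p = 3.31e-30). From 48 h to 96 h it fell by 1.31 on the log2 scale to 1528 (adjusted p = 7.51e-10). *Amotl1* and *Amotl2* thus rose from 48 h to 96 h while *Amot* fell. The kinase gene *Lats1* rose with *Lats2*, by 0.57 on the log2 scale at 2 h and by 1.56 at the end of the course.

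The smooth muscle genes were set beside other markers, since *Acta2*, *Tagln* and *Cnn1* can come from several cell types. Of 8 further smooth muscle markers 5 were tested. The summed level of all 8 lay between 194 and 278 normalized counts before induction, 611 and 704 after 2 h, and 382 and 545 after 96 h. *Smtn* made up most of the sum at 2 h, with a mean of 588 beside 136 at 0 h. At 2 h *Smtn* and *Synpo2* were higher than at 0 h (background 22.2%), whereas *Mylk* and *Synm* were lower (22.6%). At 96 h *Smtn* and *Synm* were higher than at 0 h (background 38%) and *Mylk* was lower (38.5%). Of those not tested, *Myh11*, the heavy chain that defines mature smooth muscle, had 7 reads at 0 h but 3 at 96 h. The others went the other way, *Lmod1* from 17 reads to 41 and *Myocd* from 1 to 30. Fibroblast markers were low, with *Dcn* and *Fap* at 0 at 0, 2 and 96 h and 1 of 9 tested. The tested one, *Thy1*, was lower at 96 h than before induction (log2 fold change -1.53 ± 0.52, adjusted p = 0.01). *Postn* went the other way: it had no read before induction but 2 reads after 48 h and 32 after 96 h. Its ratio of 96 h to 48 h was 15.8 (95% counting interval 4.03 to 136). The mean of *Postn* at 96 h was 15.3 normalized counts in replicates 1 and 2 but 1.57 in replicates 3 and 4. The summed level of the 9 was between 11.3 and 12.9 at 0 h and between 7.53 and 21 at 96 h. The part of such cells in the late increase of *Acta2*, *Tagln* and *Cnn1* was not tested. *Acta1*, skeletal α-actin, also had a late increase, with 2 reads at 0 h, 6 after 48 h and 186 after 96 h, a ratio of 30.6 of 96 h to 48 h (95% counting interval 13.8 to 84.4). The light chain genes *Myl6* and *Myl12a* were higher by 1.77 and 1.19 on the log2 scale at 96 h than at 0 h, whereas *Myl12b* had -0.23 and did not pass the test.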

How the data were processed

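Poly(A) RNA of KH2 mES cells had been sequenced as single reads of 50 bases (TruSeq Stranded mRNA). Per the submitters' processing notes and the study's methods, the authors used FastQC 0.11.8, cutadapt 2.7, HISAT2 2.1.0 and featureCounts (Subread 1.6.4) with mouse genome GRCm38.p6. The deposited table holds log2 values that the authors obtained with the variance-stabilizing transformation of DESeq2, so count tests were not used as the main test. This transformation was inverted: 100% of the values gave whole reads within 0.001, and normalized counts are these reads divided by the size factor of each sample.

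limma 3.58.1 (R 4.3.3) was fitted to log2(normalized count + 1) over all 32 samples with 1 mean per time point and eBayes with a trend, over the 15227 genes whose normalized count reached 10 in 4 or more samples. A call is an adjusted p under 0.1, with 4-fold as a second threshold. For genes with few reads, fold changes of these values are too small. Ratios of summed reads, divided by summed size factors, carry exact 95% counting intervals. Tables and plots were made with Python 3.11.15, numpy 2.4.6, pandas 2.3.3 and matplotlib 3.10.9, and the fit was tested on simulated data. Replicate numbers did not pair samples beyond the 2 sets (replicates 1 and 2, replicates 3 and 4).

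The 10 genes and the lists were chosen with earlier results of these data known. All 10 were named. Of the lists, up to 4 genes past 4-fold against 0 h at 2 h or 48 h, any gene where 5 or fewer passed or were tested, and the 3 nearest time courses of *Srf*, *Ankrd1*, *Amotl2* and *Acta2* could be named. *Acta2* was not tested and got none. *Actb*, *Actg1*, *Yap1*, *Lats1*, *Crim1*, *Cyr61* at 48 h, *Ptpn14*, *Myocd*, *Myh11*, *Lmod1*, *Dcn*, *Fap* and *Postn* were named after their values were seen. Protein sequences were not used here.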

Additional observations from a re-analysis of the deposited data

Results flagged for a closer look

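In 56 groups of 4 replicates, those of a gene and time point with over 3 reads in at least 1 sample, the highest or lowest sample was compared with the others by Dixon's test at its 95% critical value, and 2 samples stood apart. Chance gives about 1 in 20 groups. *Lats2* had a normalized count of 53.0 in replicate 1 at 2 h, while the other 3 replicates had 45.7 to 46.8. *Cnn1* had 2.72 in replicate 2 at 0 h, which is 4 reads, while the other 3 replicates had none.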

How the results depend on the processing

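Counts of the 7 tested genes were mostly stable. Of 621 alternative values of 27 counts, 590 stayed within 1.5 times the value reported and 31 did not. Most of the latter were counts past 4-fold, which for *Myl9* and *Ankrd1* depend on the pseudocount. With a pseudocount of 5 the number higher by 4-fold against 0 h became 0 at 2, 4, 24 and 48 h and 1 at 8 and 16 h, and with a pseudocount of 0.5 or with limma-voom on whole reads it became 2 at 48 h. On the deposited log2 values it was 1 at 16 h and 0 at 24 and 48 h. With only genes of a mean of at least 50, which leaves 4 of the genes, it was 0 at 2, 4, 8, 16, 24 and 48 h and 3 at 96 h. The number higher at FDR < 0.1 was then 3 at 4 and 8 h and 4 at 96 h. From 48 h to 96 h it was 4, with 0 past 4-fold (5 without any filter). The number lower at 48 h than at 2 h was 1 under that filter and in replicates 3 and 4 alone. Replicates 1 and 2 alone gave 1 past 4-fold at 16 h, and replicates 3 and 4 alone gave 0 at 24 h. Leaving out 1 replicate gave 1 to 2 past 4-fold at 16 h and 1 to 2 at 48 h.

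Of 2370 alternative values of 105 log2 fold changes, 2251 kept their direction and side of the threshold, 34 came to pass it, 83 no longer passed it and 2 reversed. *Amotl2* from 4 h to 8 h was -0.15 in replicates 3 and 4 alone (0.01 over all), and *Srf* from 2 h to 96 h was -0.32 in replicates 1 and 2 alone (0.04 over all); the cause was not tested. Averaging the samples of each set removed 14 calls. The fall of *Srf* from 16 h to 24 h (-0.37, adjusted p = 0.0266) was lost without 24 h replicate 1 (-0.27, adjusted p = 0.134). Samples with the same replicate number were no closer than others of their set (mean correlation of deviations 0.196 for both). With a replicate block the number of the 7 genes higher than at 0 h at 2 h was 6, and among single changes only *Amotl1* from 16 h to 24 h (0.21, adjusted p = 0.0465), *Amotl2* from 8 h to 16 h (0.36, adjusted p = 0.00327), *Ankrd1* from 8 h to 16 h (-1.04, adjusted p = 0.0976) and *Ankrd1* at 24 h against 0 h (0.90, adjusted p = 0.0824) came to pass the test. A block of the 2 sets, chosen after seeing the data, added 3 calls and removed none. Total reads as the scale moved the median change of all tested genes by -0.13 at 48 h and -0.26 at 96 h against 0 h, and upper quartiles moved it by -0.11 at 48 h. *Acta2*, *Cnn1*, *Tagln* and *Actg2* had so few reads before 96 h that depth limits what could be seen of them there.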
